A study of Mus musculus with 2 samples.

Results

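The microRNAs (miRNAs) described here are 4 genes linked to red blood cells: Mir144 and Mir451a, which are taken as blood genes, and Mir486 and Mir3107, which lie over each other on opposite strands and are also made in muscle. They were found by name among the 2202 miRNA genes of the deposited tables, and all 4 had enough reads to be tested. The study sequenced small RNAs of heart tissue from male B6CASTF1/J mice, a hybrid of the C57BL/6J and CAST/EiJ strains, aged 18 to 20 months. There is 1 group of 2 libraries, labelled biological replicates 1 and 2, each with a biosample of its own. Both point to a single donor record, so whether they come from 2 animals is not clear from the labels. The labels name no treatment and no altered gene, so there is no comparison of conditions. What can be compared is each gene with another inside a library, and the libraries with each other.

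miRNAs are cut from hairpin precursors, and bases 2 to 8 of the mature strand, the seed, choose the messenger RNAs that are repressed. Mir144 and Mir451a are cut from one transcript, which the factor GATA1 switches on in maturing red cells, and miR-451a is cut by AGO2 instead of Dicer. Mir486 sits in Ank1, the gene of the ankyrin of the red cell membrane skeleton, and is known both from red cells and from heart and skeletal muscle.

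Sequences can be given for the blood pair only, so they were not compared with those of the pair shared with muscle. The mature strands of Mir144 and Mir451a are given 5′ to 3′ with the seed in capitals, from RefSeq (GRCm38.p6), which matched 2 of the 4 genes.
miR-144-3p: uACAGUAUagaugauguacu
miR-144-5p: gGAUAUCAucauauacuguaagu
miR-451a: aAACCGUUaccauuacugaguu
No other gene in a table of 1738 mature strands had any of these 3 seeds.

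The hairpins are shown next because the pair differs in where the mature strand lies, with miR-144-3p or miR-451a in capitals.
Mir144: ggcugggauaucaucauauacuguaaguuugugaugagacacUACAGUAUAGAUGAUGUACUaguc
Mir451a: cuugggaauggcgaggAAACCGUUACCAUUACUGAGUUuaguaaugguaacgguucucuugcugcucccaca
In the structure that RNAfold predicts, miR-144-3p (bases 43 to 62 of 66) lay wholly in the 3′ arm. The mature strand of Mir451a (bases 17 to 38 of 72) took 18 bases of the 5′ arm and all 4 bases of the loop.

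Mir144 (ENSMUSG00000065401.1) spans chromosome 11, 78073005 to 78073070, and Mir451a (ENSMUSG00000070065.1) spans 78073170 to 78073241, both on the plus strand of GRCm38 (mm10). The gap between them is 99 bases. Neither lies inside a protein-coding gene, and the nearest one, Eral1, ends 134 bases beyond Mir451a on the minus strand. Mir451b (ENSMUSG00000104813.1) covers the same 72 bases as Mir451a on the minus strand. Mir486 (ENSMUSG00000070084.3) spans chromosome 8, 23142555 to 23142682, on the plus strand, and Mir3107 (ENSMUSG00000106471.1) spans 23142573 to 23142662 on the minus strand. Mir3107 lies wholly within the 128 bases of Mir486 and carries mir-486b among its RefSeq names. Both lie in an intron of Ank1, which runs on the plus strand, and in an intron of the antisense gene Gm15816.

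**Figure D1:**
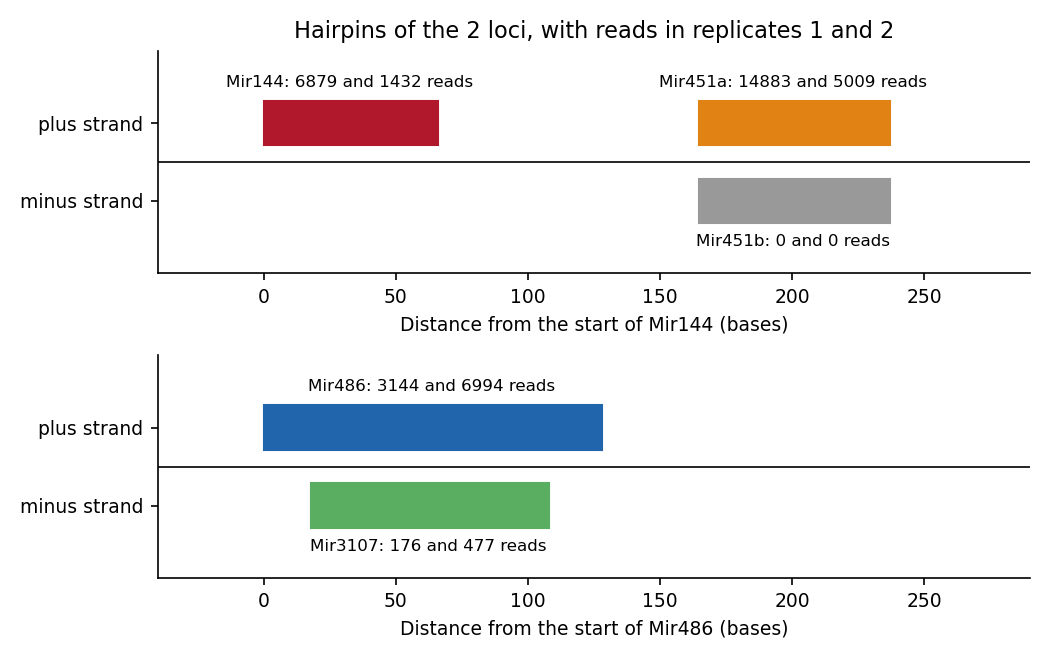
Hairpins of both loci drawn to scale, with distance in bases from the start of Mir144 or Mir486 on the x axis, the plus strand above the line and the minus strand below it. Reads on the gene's own strand in replicates 1 and 2 stand beside each box: all reads over Mir451a were on the plus strand, while both strands of the Mir486 locus had reads.

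Replicate 1 held 3037063 reads in miRNA genes and replicate 2 held 5284446, 1.74 times as many. These were 32.1% and 27.0% of all reads. Another 40.7% and 32.5% of all reads mapped to several places and were counted for no gene. Unmapped reads were 19.4% in replicate 1 and 34.3% in replicate 2. The heart muscle miRNAs Mir208a and Mir499 together had 32626 and 77373 reads. Skeletal muscle Mir206 had 19 and 26 reads, and 3 brain markers together had 109 and 398. Nearly all of the brain marker reads came from Mir137 (109 and 396), and 1 of the 3 had 0 reads in both libraries. Levels are reads per 1000000 reads in miRNA genes (CPM). Because a miRNA read is a whole mature strand, levels were not divided by gene length.

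The blood pair was abundant in replicate 1 and much lower in replicate 2. Mir144 had 6879 reads in replicate 1 and 1432 in replicate 2, or 2265 and 271 CPM. Mir451a, the miRNA that dominates mature red cells, had 14883 and 5009 reads, or 4901 and 948 CPM. By level Mir451a was number 29 of the 2202 genes in replicate 1 and number 71 in replicate 2, and Mir144 was number 44 and number 104. The means were 1268 ± 1410 CPM for Mir144 and 2924 ± 2795 CPM for Mir451a (SD, n = 2), so the spread between the libraries was about as large as the mean.

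The pair shared with muscle was steadier and slightly higher in replicate 2. Mir486 had 3144 reads in replicate 1 and 6994 in replicate 2, or 1035 and 1324 CPM, with a mean of 1179 ± 204 CPM (SD, n = 2). It ranked 63 and 62 in the libraries. Mir3107 had 176 and 477 reads, or 58.0 and 90.3 CPM, with a mean of 74.1 ± 22.8 CPM (SD, n = 2).

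**Figure D2:**
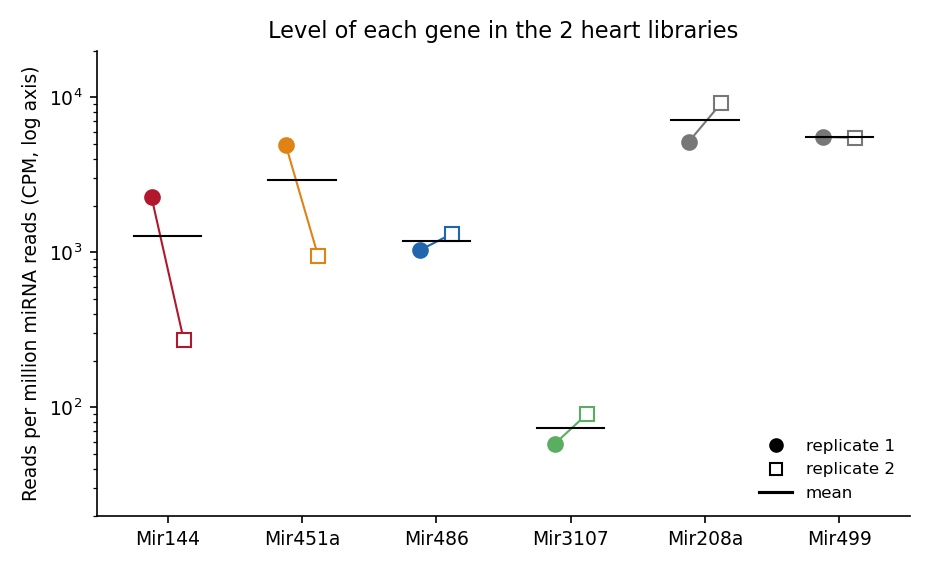
Level of the 4 genes and of the heart muscle miRNAs Mir208a and Mir499 in reads per 1000000 miRNA reads on a log axis. Filled circles are replicate 1, open squares replicate 2 and black bars the mean: Mir144 (2265 and 271 CPM) and Mir451a (4901 and 948 CPM) lie far apart, while Mir486 lies between 1035 and 1324 CPM.

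The order of the 4 genes by counted reads differed between the libraries. In replicate 1 Mir451a led, followed by Mir144, Mir486 and Mir3107. In replicate 2 Mir486 came first, 1.40 times as high as Mir451a (95% interval 1.35 to 1.45), and Mir144 came next. Every step in both orders was larger than counting error, but over the libraries the means of Mir144, Mir451a and Mir486 lay within the spread of Mir451a. Mir3107 was lowest in both libraries, and its highest level (90.3 CPM) was under the lowest level of Mir144 (271 CPM).

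The strand columns separate Mir486 from Mir3107 for those reads that were placed on 1 strand. Of the reads over the locus, 94.7% were on the plus strand of Mir486 in replicate 1 (95% Wilson interval 93.9 to 95.4), and 93.6% were so in replicate 2 (93.0 to 94.1). The remaining 5.30% (4.59 to 6.12) and 6.38% (5.85 to 6.96) were on the strand of Mir3107. The ratio of Mir3107 to Mir486 was 0.0560 and 0.0682, and it was 1.22 times as high in replicate 2 (exact conditional 95% interval 1.02 to 1.46). The strand shares differed by little more than counting error.

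Mir486 and Mir3107 are known to give main mature strands of the same sequence. A read that matches both strands equally well maps to several places and is in neither count. How many such reads there were was not tested, so the levels of both genes are uncertain, and the strand shares describe only reads that were placed on 1 strand. In the column for either strand both genes had 0 reads. That column keeps a line of its own for ambiguous reads, which held 784246 and 1365026 reads. Mir30e, which Mir30f overlaps on the other strand, likewise had 0 reads in that column, against 21865 and 31813 sense reads. The sense column placed 3320 and 7471 reads on the Mir486 locus.

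At the other locus all counted reads were on the plus strand. Over Mir451b 0 reads were counted in both libraries, which allows up to 3 reads, a level of 0.988 CPM at the depth of replicate 1 and of 0.568 CPM at that of replicate 2. The strand opposite Mir144 likewise had 0 reads in both. The longest stretch that mature miR-451a shares in the same direction with any of 1005 RefSeq hairpins was 16 bases, with Mir451b. For miR-144-3p it was 10 bases.

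Ratios inside a library do not depend on depth or scaling. Those with Mir486 or Mir3107 leave out reads that match both strands of that locus, and how many each library had was not tested. Among the counted reads, the ratios set the blood pair apart from the pair shared with muscle. Mir144 and Mir451a made up 86.8% of the 25082 reads of the 4 genes in replicate 1 (95% Wilson interval 86.3 to 87.2), but 46.3% of 13912 in replicate 2 (45.5 to 47.1). The share of Mir486 alone was 12.5% (12.1 to 13.0) in replicate 1, against 50.3% (49.4 to 51.1) in replicate 2. Mir3107 took 0.702% and 3.43%.

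**Figure D3:**
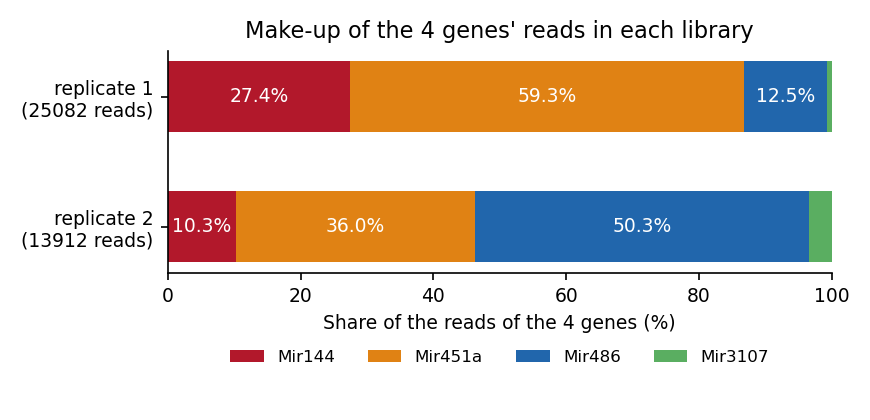
Share of the reads of the 4 genes that each gene took, in percent on the x axis, with 1 bar for each library. Mir451a takes the largest part in replicate 1 (59.3%) and Mir486 in replicate 2 (50.3%).

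The blood pair summed to 6.55 reads for each read of the pair shared with muscle in replicate 1 (exact 95% interval 6.32 to 6.80) and 0.862 in replicate 2 (0.834 to 0.891). That ratio was 7.60 times as high in replicate 1 (exact conditional interval 7.23 to 7.99). Gene by gene, Mir451a to Mir486 was 4.73 and 0.716, a 6.61-fold difference (6.27 to 6.97). Mir144 to Mir486 was 2.19 and 0.205, a 10.7-fold difference (9.95 to 11.5). Against Mir3107 the differences were 8.05-fold for Mir451a (6.74 to 9.66) and 13.0-fold for Mir144 (10.8 to 15.7). All 4 ratios of a blood gene to a gene shared with muscle were therefore higher in replicate 1. These intervals cover counting error only, and the ratios were not tested over the libraries, since 2 libraries allow no p smaller than 0.5 in an exact sign-flip test.

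Within the blood pair the balance also differed, by less. Mir451a had 2.16 reads for each read of Mir144 in replicate 1 (95% interval 2.10 to 2.23) and 3.50 in replicate 2 (3.30 to 3.71), a 1.62-fold difference (1.51 to 1.73). On the log2 scale that is 0.69. It can be set beside 61 other pairs of neighbouring hairpins on 1 strand, at most 10000 bases apart and each with at least 100 reads summed over the libraries. Their log2 ratios between the libraries differed by a median of 0.58 (range 0.0028 to 2.70), and 21 of the 61 differed by more than Mir144 and Mir451a did. This comparison was chosen after the values were seen and is a description only. The other pairs differ in read number and in distance, and whether each shares a transcript was not tested. The comparison therefore cannot show whether 0.69 is usual for hairpins cut from 1 transcript.

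Set against the heart muscle miRNAs Mir208a and Mir499, both made from introns of myosin genes, Mir486 differed little. It had 0.0964 reads for each of their summed reads in replicate 1 (95% interval 0.0929 to 0.100) and 0.0904 in replicate 2 (0.0882 to 0.0926), 1.07 times as high in replicate 1 (1.02 to 1.11). Mir3107 had 0.00539 and 0.00616, and the interval of its difference included no change (0.959 to 1.37). Mir451a had 0.456 and 0.0647, 7.05 times as high in replicate 1 (6.81 to 7.30). Mir144 had 0.211 and 0.0185, 11.4 times as high in replicate 1 (10.7 to 12.1).

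The near-constant ratio of Mir486 holds for the sum of the muscle genes and not for each. To Mir208a alone it was 0.200 in replicate 1 and 0.145 in replicate 2, and to Mir499 alone 0.186 and 0.241, so it went opposite ways. Mir208a itself was higher in replicate 2 by a log2 difference of 0.82, while Mir499 differed by -0.019. The blood genes were lower in replicate 2 against either: Mir451a was 9.13-fold and Mir144 14.8-fold higher in replicate 1 per read of Mir208a, and 5.10-fold and 8.25-fold higher per read of Mir499.

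**Figure D4:**
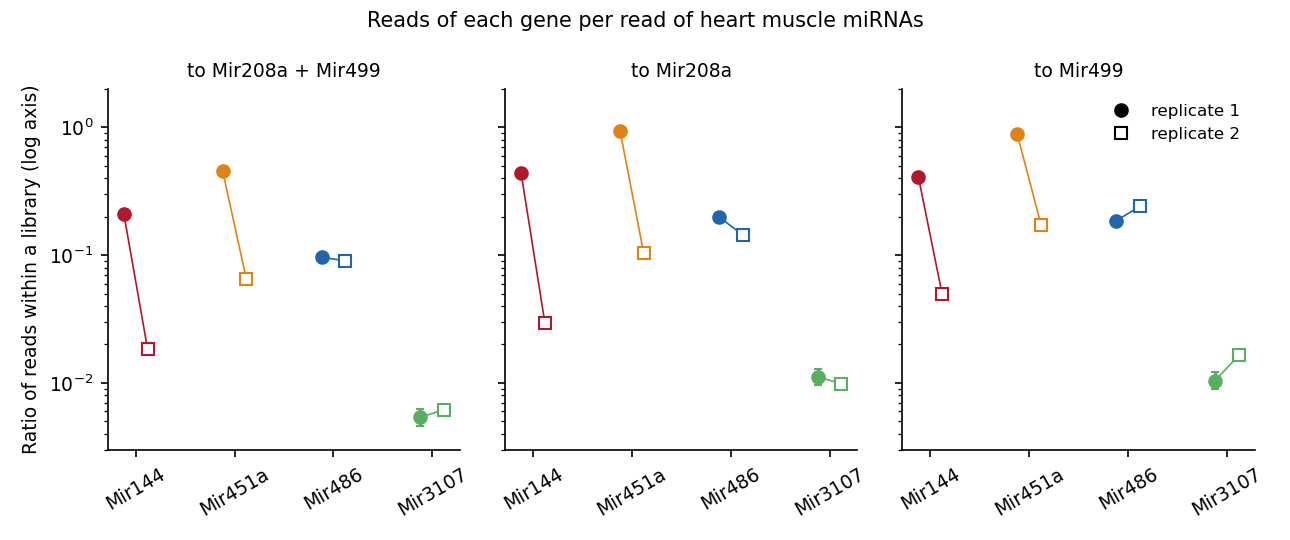
Reads of each gene for each read of Mir208a and Mir499 together (left), Mir208a (middle) and Mir499 (right), on a log axis, with exact 95% intervals of counting error. Circles are replicate 1 and squares replicate 2: Mir144 and Mir451a lie far lower in replicate 2 in all 3 panels, and Mir486 goes from 0.200 to 0.145 in the middle and from 0.186 to 0.241 on the right.

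Each gene was also tested between the libraries, with an exact binomial test of its reads given the library totals and Benjamini-Hochberg adjustment over the 424 genes whose reads summed to 10 or more. Replicate 1 was 8.36 times as high for Mir144 (95% interval 7.89 to 8.85; log2 difference, replicate 2 minus 1, -3.06) and 5.17 times as high for Mir451a (5.01 to 5.34; -2.37). Both were called higher in replicate 1, as were 21.9% of the 424 genes. Replicate 2 was 1.28 times as high for Mir486 (1.23 to 1.33; log2 difference 0.35, adjusted p = 2.87e-30) and 1.56 times as high for Mir3107 (1.31 to 1.86; 0.64, adjusted p = 9.31e-07). Both were called higher in replicate 2, as were 30.9% of the genes. With such background shares a call by itself says little, and it compares these 2 libraries, not conditions. The sign for Mir486 depends on the scaling: with Mir208a and Mir499 as the reference its log2 difference was -0.092.

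The blood genes had some of the larger differences, but not the largest in either direction. Of the 424 tested genes, 3 had a log2 difference as low as that of Mir144, Mir144 included, and 5 one as low as that of Mir451a. Counted in both directions, 21 genes had an absolute difference at least as large as that of Mir144, itself included, and 29 one at least as large as that of Mir451a. The median over the 424 was 0.07 and the median absolute difference 0.50. The absolute difference of Mir486 exceeded that of 39.6% of the genes, and that of Mir3107 exceeded 60.6%. A second test, edgeR's exact test, adds a dispersion common to all genes. With 1 library in each arm, the dispersion comes from the very difference under test, so no replicate stands behind its p-values. In it, Mir144 had an adjusted p = 0.0287 and Mir451a an adjusted p = 0.218, which does not show that these genes differ from each other. Mir486 and Mir3107 had an adjusted p = 1 in that test. It called 0.472% of the genes as higher in replicate 1 and 2.36% as higher in replicate 2.

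In bulk tissue, fewer cells of a type and less of a miRNA in each cell cannot be told apart. Other miRNAs known from red cells, 12 genes that other cells also make, went both ways between the libraries. By the binomial test 7 were higher in replicate 1 (21.9% of all tested genes were), 4 were higher in replicate 2 (30.9% of all) and 1 did not pass. The edgeR test called none of them. Their median log2 difference was -0.22, against 0.07 over all tested genes. The list holds Mir16-1 with Mir16-2 and Mir92-1 with Mir92-2. Reads that map equally well to both genes of such a pair are in neither count, and how many there were was not tested. Mir93, from the miR-106b cluster, had 4946 and 4287 CPM, and Mir92-1, of the miR-17 cluster, had 4454 and 3016 CPM. Mir185 had 1441 and 1530 CPM. Mir22 was higher in replicate 2, with 13626 and 34813 CPM. Mir363, named after its value was seen, was the lowest of the 12, with 20 and 6 reads and a log2 difference of -2.54, lower than that of Mir451a. The other members of the list lay between -0.56 and 1.35.

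**Figure D5:**
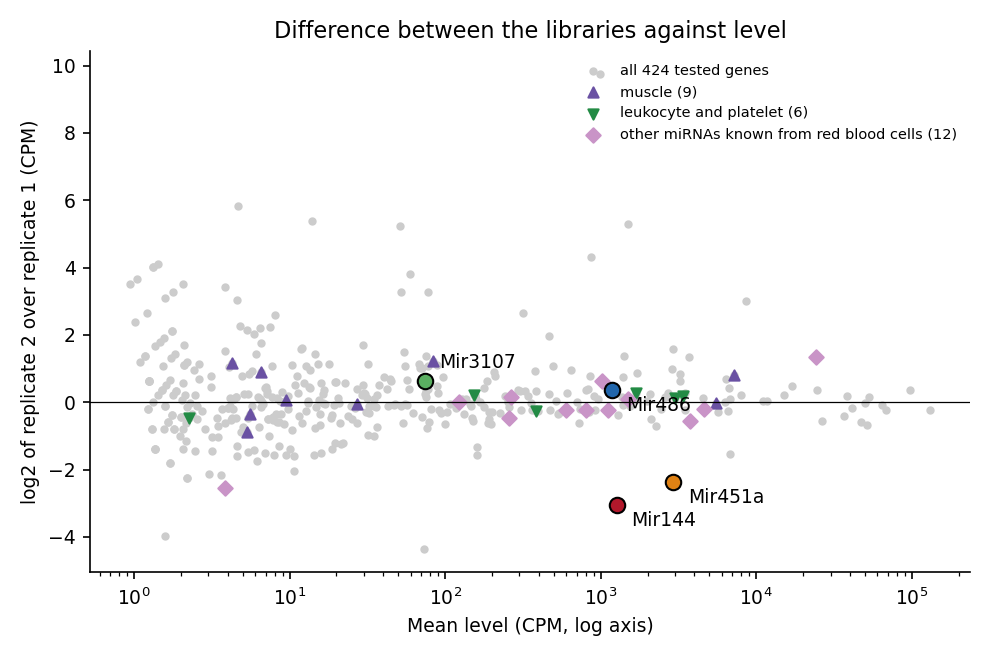
Log2 of the level in replicate 2 over replicate 1 against the mean level (CPM, log axis) for the 424 tested genes, with 3 gene lists and the 4 genes marked. Mir144 (-3.06) and Mir451a (-2.37) are the lowest of the genes with a mean of at least 100 CPM, while Mir486 (0.35) and Mir3107 (0.64) lie in the main band.

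Markers of other blood cells were not low in replicate 2 as the pair was. Of 7 leukocyte and platelet genes, 6 were tested. The binomial test called 4 as higher in replicate 2 and 1 as higher in replicate 1, and 1 did not pass, where 30.9% and 21.9% of all tested genes were called in those directions. Their median log2 difference was 0.16, with a range from -0.48 to 0.27. The edgeR test called none. The summed level of the 4 defining markers (Mir223, Mir142, Mir150 and Mir155) was 6557 CPM in replicate 1 and 7238 CPM in replicate 2, with none at 0, whereas Mir144 and Mir451a summed to 7166 and 1219 CPM. Most of the level of these markers came from Mir155 (3152 and 3608 CPM) and Mir150 (2843 and 3115 CPM). Mir223 was also higher in replicate 2 (142 and 166 CPM), and Mir142 went the other way (420 and 350 CPM). Of the 9 muscle genes, 2 were higher in replicate 2 and 7 were not called, and their summed level was 10850 and 14817 CPM. Almost all of that level came from Mir208a (5184 and 9154 CPM) and Mir499 (5559 and 5487 CPM). Apart from Mir499, the muscle genes not called had at most 141 reads in a library, too few to show that they were alike. Reads that mapped to several places are in none of these counts. Endothelial Mir126a, Mir221 and Mir222 were all higher in replicate 2 by the binomial test, with a median log2 difference of 1.57, that of Mir221. The muscle and endothelial calls are read against the same 30.9%. The summed level of these 3 endothelial genes was 86800 and 114721 CPM. Almost all of it came from Mir126a (85244 and 109823 CPM), whose log2 difference was 0.37. Mir126b, also on the endothelial list, had 1 and 8 reads and was not tested. None of the muscle or endothelial genes was called by the edgeR test.

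Mir205 and Mir200c, miRNAs known from epithelia, differed more between the libraries than either blood gene did. The 7 such genes, a list chosen after values were seen, were the miR-200 family with Mir141 and Mir429, Mir203 and Mir205. The binomial test called 4 of them as higher in replicate 2 (30.9% of all tested genes were) and 2 as higher in replicate 1 (21.9% of all). The edgeR test called 2, Mir205 and Mir200c, both higher in replicate 2, a direction in which it called 2.36% of all tested genes. The summed level of the 7 genes was 298 CPM in replicate 1 and 3874 CPM in replicate 2, with none at 0. Most of it came from Mir205, known from skin and other layered epithelia, with 7 and 10372 reads (log2 difference 9.73), and from Mir200c, with 251 and 8728 reads (4.32). The other members lay between -0.68 and 1.62, and their median with these was 0.43. Mir31, which is not on the list, had 228 and 15421 reads (5.28). What part the levels of any of these cell types, epithelium included, have in the values of the 4 genes was not tested.

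By the nearness of the log2 difference between the libraries, over 244 other genes with at least 100 reads summed over the libraries, Mir144 and Mir451a were each other's nearest gene, 0.69 apart. Next to Mir144 came Mir301 (-4.35, from 422 and 36 reads) and Mir370 (-1.57). Next to Mir451a came Mir370 and Mir101a (-1.56). The gap from Mir451a to these was 0.80 and 0.81. Mir363 (-2.54, from 20 and 6 reads) had too few reads for this rule, and its value lay between those of Mir144 and Mir451a. For Mir486 the nearest genes were mmu-mir-3535 (0.36), Mir149 (0.36) and Mir874 (0.35), all within 0.0077 of it. With 2 libraries this likeness rests on a single ratio for each gene.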

How the data were processed

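The authors deposited whole-number read counts per miRNA gene, 1 table for each of 2 heart libraries of 1 group, not normalized. Per the labels the build was mm10, and per the text deposited with the tables the annotation was GENCODE M21. The aligner and counter were not given in the sources used here. Besides 4 summary lines, left out of totals and tests, a table has a column for either strand and 1 for each strand. The strand column with more reads in both libraries (column 3) was taken as sense. Gene IDs were named from GENCODE M21. Sequences and synonyms come from RefSeq.

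CPM used the reads in miRNA genes. Differences between libraries used exact binomial tests across all genes (scipy 1.17.1), with a threshold of 0.05. edgeR 4.0.16 gave the TMM scaling and an exact test with the common dispersion (biological coefficient of variation 40.5%), and DESeq2 1.42.0 gave size factors. RNAfold 2.7.2 predicted structures. The binomial script was tested on simulated data. Named genes were the 4 members, overlapping or near miRNA genes, up to 4 genes of each list by level, and the 3 nearest genes by log2 difference. Members and lists were chosen with earlier results of these data known. 2 list names were matched through RefSeq synonyms. Intervals cover counting error only, since they are computed from read counts without a term for the spread between libraries. No molecular identifiers are recorded, so copies of 1 molecule could not be told from separate molecules.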

Additional observations from a re-analysis of the deposited data

How the results depend on the processing

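In 1 library alone, the log2 ratio of the blood pair to the pair shared with muscle was 2.71 or -0.21, that of Mir144 to Mir486 1.13 or -2.29, and that of Mir451a to Mir486 2.24 or -0.48, so the sign depends on the library. In the column for either strand Mir451a, Mir486 and Mir3107, each overlapped by a miRNA gene on the other strand, had levels of 0. Their differences and ratios therefore have no value there. Per 1000000 of all reads (a shift of the median by -0.25), the mean levels were 399.8 for Mir144, 914 for Mir451a, 345 for Mir486 and 21.5 for Mir3107, and 81 genes were higher in replicate 2 and 145 in replicate 1, against 131 and 93. Scaling by Mir208a and Mir499 shifted the median log2 difference of the tested genes by -0.45 and gave 64 and 187 genes. The log2 difference was then -0.092 for Mir486 and 0.19 (adjusted p = 0.191) for Mir3107. Scaling by Mir208a alone, chosen after seeing the data (shift -0.82), gave -0.47 and -0.18, with 36 and 245 genes. With the common dispersion of edgeR, 10 and 2 genes were called, and Mir451a (-2.38), Mir486 (0.34) and Mir3107 (0.63) were not. Mir144 and Mir451a were lower in replicate 2 under every alternative that gave them a value. The search of hairpin windows in the genome was not run, because no genome was used here. Without 1 library no difference between libraries can be had. No paired analysis was possible because there is 1 group. Few reads limit Mir3107.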
